A study of Mus musculus with 6 samples.

Results

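Small leucine-rich proteoglycans (SLRPs) are secreted proteins with a core of leucine-rich repeats that bind collagen fibrils, and the transcripts of 9 of them (Dcn, Bgn, Aspn, Fmod, Lum, Kera, Prelp, Ogn and Chad) were followed in mouse hind leg muscle after exercise training. The members were chosen by gene symbol, and all 9 had a row in the table of 16759 genes. RNA was sequenced from hind leg muscle of 3 exercise (EX) mice and 3 control (Con) mice, with 1 library per mouse. All mice were male C57BL/6J and 8 weeks old when they entered the study. EX mice ran on an electric treadmill at moderate intensity for 60 min a day, 5 days a week, for 6 weeks, covered 22 km each, and were killed 24 h after their last run. Con mice did no treadmill running, and their time of killing was not stated. The vessels were flushed with phosphate buffered saline, fat between the muscles was removed, and a small piece of muscle was taken for RNA; the labels do not say from which hind leg muscle. The piece is a mixture of muscle fibres, connective tissue, vessels and nerve.

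The core proteins of this family differ in their side chains. Dcn and Bgn carry chains of chondroitin or dermatan sulfate, Fmod, Lum and Kera can carry keratan sulfate, and several members carry none. In muscle they lie in the connective tissue sheaths around fibres and bundles and in the tendon, where they limit the width and spacing of collagen fibrils, and several also bind growth factors such as TGF-beta and myostatin. Fibroblasts and tendon cells are their main known source.

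Total counts on genes were between 13845367 and 16240426 per library, and Con replicate 1 was the shallowest. Libraries of one group differed by more than counting noise: the chi-square per degree of freedom over genes was 3.13 and 3.79 between Con replicate 1 and the other Con libraries, 1.71 between Con replicates 2 and 3, and 1.79 to 2.20 among EX libraries. Con replicate 1 also had the highest Con level of 6 members (Dcn, Bgn, Fmod, Kera, Prelp and Chad), and values without it are given beside members whose call changed and beside list counts that moved by more than 1.5 times. The 6 muscle fibre markers (Acta1, Ckm, Myh4, Myh1, Tnnt3 and Mb) summed to between 138028 and 144507 CPM (counts scaled to library size) in Con libraries and between 146577 and 154225 CPM in EX libraries. The tissue label was thus matched by its defining transcripts in every library.

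In trained muscle 2 SLRP transcripts, Fmod and Ogn, were higher than in Con muscle, and the other 7 members did not pass the test in either direction. Fmod was 1.73-fold and Ogn 1.21-fold higher in EX than in Con muscle. The test was the quasi-likelihood F-test of edgeR, with Benjamini-Hochberg adjusted p-values over all 10883 genes whose mean was 1 FPKM or more, a filter that all 9 members passed. A gene was called at an adjusted p-value under 0.05. The 2 calls are 22.2% of the members, where 9.11% of all genes tested were called higher and 8.80% lower. No member was called lower, and 3 members had an unadjusted p-value under 0.05 (Fmod, Ogn and Dcn), as did 30.6% of all genes tested. DESeq2 also called 2 members higher and 0 lower, where it called 5.91% of all genes higher and 5.38% lower. The median log2 fold change (EX minus Con) of the members was 0.07, beside -0.00091 for all genes tested, with 6 positive and 3 negative values. The CPM of the groups were fully separate for 3 members, all higher in EX (Fmod, Ogn and Kera; Kera overlapped in FPKM), where 16.7% of all genes tested were separate in that direction. In bulk muscle, more cells that express a gene and more of its RNA per cell cannot be told apart.

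Levels of different genes were compared only per transcript length, as FPKM (fragments scaled by transcript length and by sequencing depth). Dcn was far above the rest at a mean of 208 FPKM over the 6 libraries. Bgn followed at 28.3 FPKM, Fmod at 25.5, Lum at 20.0 and Ogn at 17.4. Aspn at 11.6 FPKM, Prelp at 11.2, Chad at 5.65 and Kera at 3.80 stood at the low end. Over all 6 libraries, the ranges of neighbours in this order overlapped for Bgn and Fmod, Fmod and Lum, Lum and Ogn, and Aspn and Prelp, so those neighbours were not apart beyond their spread. The place of Fmod in this order differed between the groups. In Con muscle the Fmod levels (17.98 to 21.44 FPKM) overlapped those of Lum (18.73 to 21.10) and lay under those of Bgn (25.55 to 30.26). In EX muscle the Fmod levels (29.25 to 33.45 FPKM) overlapped those of Bgn (26.98 to 30.90) and lay above those of Lum (19.12 to 21.19). The Ogn levels lay under those of Lum in Con muscle (15.58 to 16.60 FPKM) and reached into the range of Lum in EX muscle (17.31 to 19.41 FPKM).

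**Figure D1:**
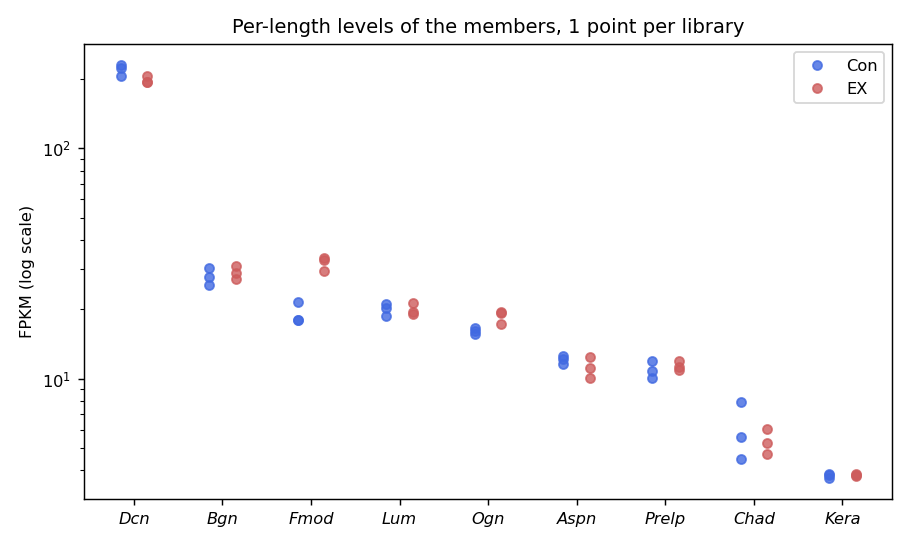
Levels of the 9 members in FPKM on a log axis, 1 point per library, Con in blue and EX in red, ordered by the mean over all 6 libraries. Dcn lies between 193.31 and 230.53 FPKM in every library and Kera between 3.69 and 3.85, and the Fmod points of EX (29.25 to 33.45) lie clear of those of Con (17.98 to 21.44).

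As a share of the summed FPKM of the 9 members, Dcn went from 65.4% ± 0.818 (SD, n = 3) in Con to 60.1% ± 0.976 in EX muscle. The share of Fmod went from 5.71% ± 0.362 to 9.70% ± 0.848, and that of Ogn from 4.80% ± 0.369 to 5.69% ± 0.307. The mean shares of Bgn, Lum, Kera and Prelp were also larger in EX muscle, and those of Aspn and Chad smaller, all by less than 1 percentage point. Shares add to a fixed total and are not independent of each other. The summed level itself was 352, 336 and 318 FPKM in Con replicates 1 to 3 and 335, 324 and 326 FPKM in EX replicates 1 to 3, and the groups overlapped.

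Fmod encodes fibromodulin, a keratan sulfate proteoglycan that binds type I collagen, shapes fibril growth and guides the cross-linking of collagen in tendon. Its counts were 832, 781 and 782 in Con replicates 1 to 3 and 1318, 1520 and 1474 in EX replicates 1 to 3. Scaled to library size, these were 59.7, 49.7 and 49.0 CPM in Con and 83.1, 96.8 and 93.6 CPM in EX. Every EX library was above every Con library, and the gap between the nearest libraries was larger than the spread within either group. The means were 52.8 ± 5.97 CPM and 91.2 ± 7.14 CPM (SD, n = 3), a log2 fold change of 0.79 (SE 0.06, 95% interval 0.66 to 0.92, edgeR adjusted p = 2.46e-10). Of all genes tested, 0.662% had a larger log2 fold change. Fmod was called under all 15 alternative settings, with log2 fold changes from 0.70 to 0.88 and adjusted p-values from 2.18e-19 to 0.000678.

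Ogn encodes osteoglycin, also named mimecan, which is found in bone, vessel walls and other connective tissue and takes part in collagen fibril assembly. It had 36.2, 34.9 and 36.8 CPM in Con replicates 1 to 3 and 44.8, 40.7 and 45.0 CPM in EX replicates 1 to 3. The lowest EX library was above the highest Con library, and EX replicate 2 was the nearest to Con. The means were 35.9 ± 0.976 and 43.5 ± 2.42 CPM, a log2 fold change of 0.27 (SE 0.06, 95% interval 0.16 to 0.39, edgeR adjusted p = 0.000813). A larger log2 fold change was seen in 5.55% of genes tested. Ogn was called under 14 of 15 alternatives; on TPM values with limma it was 0.18 with an adjusted p of 0.0693.

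The promoters of these 2 members are printed because they are the members called higher in EX muscle. They come from RefSeq (build GRCm38.p6), from 250 bases before the transcription start to 30 after it, on the + strand. Fmod lies at chr1:134037004-134037283 and Ogn at chr13:49607765-49608044. Capitals mark the longest run of bases that both share on the same strand, which is 11 bases long and starts at position 7 after the start in Fmod and 6 bases before the start in Ogn.
Fmod: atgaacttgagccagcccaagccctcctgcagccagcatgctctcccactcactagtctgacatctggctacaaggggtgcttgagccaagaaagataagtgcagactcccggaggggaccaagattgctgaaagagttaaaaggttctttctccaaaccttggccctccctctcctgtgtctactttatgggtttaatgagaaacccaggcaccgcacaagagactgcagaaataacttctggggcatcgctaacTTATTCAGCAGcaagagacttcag
Ogn: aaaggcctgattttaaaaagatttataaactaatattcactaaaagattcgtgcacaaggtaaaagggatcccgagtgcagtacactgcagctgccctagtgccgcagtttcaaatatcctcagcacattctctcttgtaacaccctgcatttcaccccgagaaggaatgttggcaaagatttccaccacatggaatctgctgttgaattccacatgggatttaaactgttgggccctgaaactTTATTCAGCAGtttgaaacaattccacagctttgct
The run TTATTCAGCAG was present on either strand in 10 of 32851 promoters of the table (0.0304%), each taken to 50 bases after the start. It was picked because these 2 promoters share it, and 3 of the 21 pairs among the 7 member promoters in the table shared a run at least as long. The table holds no Dcn or Lum promoter. GC content was 50.4% for the printed Fmod stretch and 41.8% for that of Ogn.

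Known motifs were looked for on both strands of the windows up to 50 bases after the start. The TATA box TATAAA was in 3 of the 7 member promoters (Aspn, Chad and Ogn) and in 13.6% of all promoters. The E-box CANNTG was in 6 of the 7, with 1 copy in Fmod and 4 in Ogn, and in 72.3% of all promoters. The SMAD box CAGAC was in Fmod, with 2 copies, and in Prelp, and in 49.6% of all promoters. The GC box GGGCGG was in Bgn and Chad and in 35.7% of all promoters, and the AP-1 site TGANTCA was in 0 of the 7 and in 7.81% of all. A match to such short letters is a description of the sequence and does not show binding.

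Dcn, Bgn and Aspn form the group of members closest to decorin. Dcn encodes decorin itself, which binds fibrils of type I collagen and sequesters TGF-beta and myostatin. Its levels were 352, 337 and 307 CPM in Con replicates 1 to 3 and 319, 308 and 305 CPM in EX replicates 1 to 3. The groups overlapped, with 2 Con libraries above all EX libraries and Con replicate 3 among them. The means were 332 ± 23.2 and 311 ± 7.80 CPM, a log2 fold change of -0.10 (SE 0.04, 95% interval -0.18 to -0.01), and the edgeR adjusted p was 0.118. Without Con replicate 3 it was -0.15 with an adjusted p of 0.00838, which passed the threshold. Over all 15 alternatives the log2 fold change of Dcn ran from -0.19 to -0.06, with adjusted p-values from 0.00838 to 0.336 and 3 calls. Dcn was also called lower with library totals taken without the 20 most abundant genes (adjusted p = 0.042) and by limma on TPM (adjusted p = 0.032).

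Bgn encodes biglycan, which in muscle binds dystroglycan, sarcoglycans and the receptor kinase MuSK. It had 63.2, 57.0 and 52.2 CPM in Con and 57.5, 62.3 and 66.4 CPM in EX replicates 1 to 3. Con replicate 1 lay within the EX range, and the other Con libraries lay under all EX libraries. The log2 fold change was 0.11 (SE 0.06, 95% interval -0.01 to 0.24, edgeR adjusted p = 0.203). Without Con replicate 1 it was 0.18 with an adjusted p of 0.0177, which passed the threshold. Over the 15 alternatives the log2 fold change of Bgn ran from 0.02 to 0.18, with adjusted p-values up to 0.867 and 1 call. Aspn encodes asporin, a collagen-binding member with a run of aspartates that also binds TGF-beta. It had 23.3, 24.2 and 24.8 CPM in Con and 25.6, 23.4 and 20.8 CPM in EX, with EX libraries on both sides of the Con range. Its log2 fold change was -0.05 (SE 0.07, 95% interval -0.20 to 0.10, edgeR adjusted p = 0.677), and without EX replicate 3 it was 0.02.

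Lum, Kera and Prelp belong with Fmod to the group of members closest to fibromodulin. Lum encodes lumican, which binds the same region of type I collagen as fibromodulin. It had 32.6, 36.4 and 34.4 CPM in Con and 37.7, 35.3 and 34.3 CPM in EX replicates 1 to 3, and the groups overlapped over most of their range. The log2 fold change was 0.05 (SE 0.06, 95% interval -0.07 to 0.17, edgeR adjusted p = 0.61), so the interval ended far under the change of Fmod. Its direction was not stable, since it was -0.04 with limma on TPM.

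Prelp encodes a member with a basic, heparin-binding end that binds perlecan and collagen at basement membranes. It had 39.0, 34.8 and 32.1 CPM in Con and 36.4, 40.4 and 37.8 CPM in EX, and Con replicate 1 lay among the EX libraries. Its log2 fold change was 0.12 (SE 0.06, 95% interval -0.01 to 0.25, edgeR adjusted p = 0.22), and 0.19 with an adjusted p of 0.0317 without Con replicate 1. Over the 15 alternatives the log2 fold change of Prelp ran from 0.03 to 0.19, with adjusted p-values up to 0.832 and 1 call. Of its exon bases in the GENCODE M21 annotation, 9.68% overlap Gm15851 on the opposite strand, and whether the counting used strand was not stated. Kera encodes keratocan, best known from the cornea. Its counts were 86, 93 and 97 in Con and 99, 101 and 101 in EX, or 6.17, 5.92 and 6.08 CPM and 6.24, 6.43 and 6.41 CPM. All EX values were above all Con values but by very little, and in FPKM the groups overlapped (3.69 to 3.85 in Con and 3.78 to 3.85 in EX). The test on counts gave no call: the log2 fold change was 0.07 (SE 0.12, 95% interval -0.18 to 0.32, edgeR adjusted p = 0.738). With 86 to 101 reads per library, the SE was larger than the change itself, and what size of change could be detected was not tested.

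Chad encodes chondroadherin, a cartilage protein that binds collagen and integrin. Its counts were 149, 94 and 117 in Con and 131, 103 and 115 in EX, or 10.7, 5.98 and 7.34 CPM and 8.26, 6.56 and 7.30 CPM. Con replicate 1 was the highest of the 6 libraries, and Con replicate 2 the lowest. The Con libraries varied by 30.3% of their mean (SD over mean), the widest spread among the members. The log2 fold change was -0.10 (SE 0.15, 95% interval -0.41 to 0.21, edgeR adjusted p = 0.695), and 0.14 without Con replicate 1.

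**Figure D2:**
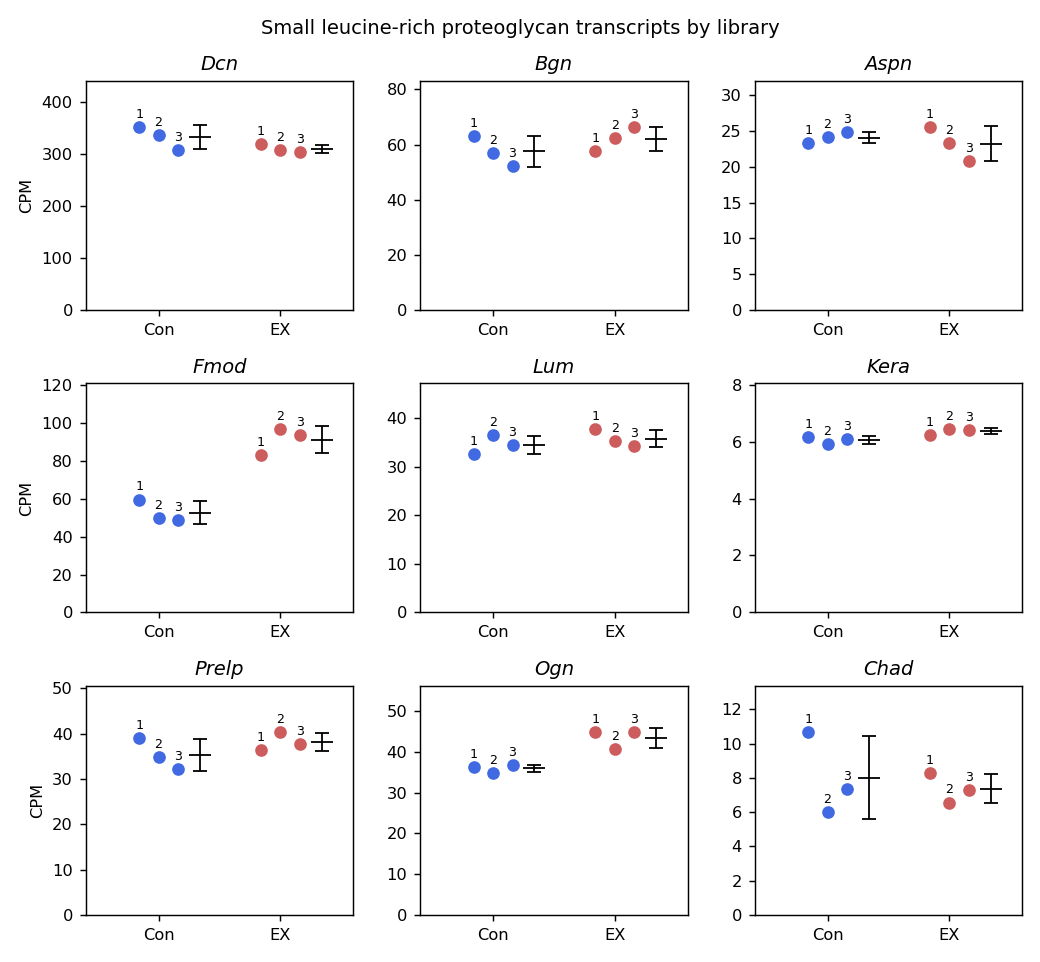
CPM of each member in each library on axes that start at 0, with the replicate number above each point and, to the right of the points, the mean and SD of the 3 libraries of a group. Fmod (49.0 to 59.7 CPM in Con and 83.1 to 96.8 in EX) and Ogn (34.9 to 36.8 and 40.7 to 45.0) show a clear gap between the groups, Kera has a gap of less than 0.1 CPM, and the other 6 members overlap.

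**Figure D3:**
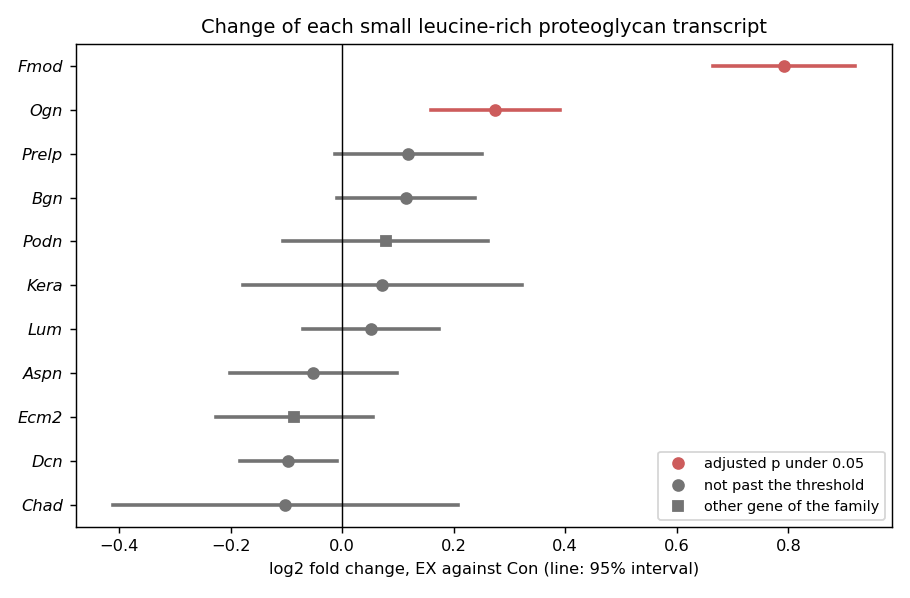
Log2 fold change of each member and of Podn and Ecm2 (squares), with the 95% interval from edgeR as a line and calls in red. Fmod (0.79) and Ogn (0.27) are in red, the intervals of the uncalled genes cross 0 or, for Dcn (-0.18 to -0.01), end close to it, and that of Chad (-0.41 to 0.21) is the widest.

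Of the 9 other listed genes of the family, 8 had a row, 2 passed the filter and none was called in either direction by edgeR, while 1 (Epyc) had an unadjusted p-value under 0.05, as did 23.6% of all genes in the fit without the filter. DESeq2 called none of them either. Ecm2, which binds collagen and lies beside Aspn, had 23.8, 23.4 and 26.7 CPM in Con and 23.5, 22.7 and 23.5 CPM in EX (log2 fold change -0.09, edgeR adjusted p = 0.427). Podn, a collagen-binding member, had 13.1 ± 0.780 and 13.8 ± 1.21 CPM (0.08, adjusted p = 0.605). The others had few reads. Omd, a bone and tooth member, counted 19, 18 and 15 reads in Con against 12, 10 and 13 in EX, without overlap (-0.62, adjusted p = 0.229). Tsku had 22, 18 and 16 against 29, 25 and 25 counts and Nyx 7, 11 and 10 against 16, 13 and 13, also without overlap. Their log2 fold changes were 0.44 and 0.53, with edgeR adjusted p-values of 0.301 and 0.407. Among all genes in the fit without the filter, the groups were fully separate for 13.4% as higher and for 13.3% as lower in EX. Epyc, known from cartilage, counted 1, 2 and 4 reads in Con and 0 in each EX library (adjusted p = 0.0756). A count of 0 allows up to 3 counts, or 0.185 to 0.217 CPM, and Epyc and Optc, which had at most 1 count per library, were near this limit. No fold is given for Epyc, and Chadl had 19, 15 and 16 counts against 13, 21 and 15.

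Several members are neighbours in the genome by gene order in RefSeq. Dcn, Lum, Kera and Epyc follow each other on chromosome 10, and none of these was called. Optc, Prelp and Fmod follow each other on chromosome 1, with 0 coding genes between Prelp and Fmod, and the log2 fold changes of these neighbours were 0.12 and 0.79 with intervals that do not overlap. Ecm2, Aspn, Omd and Ogn lie in a row on chromosome 13 inside the gene Cenpp, and of these only Ogn was called higher. Ogn shares no exon base with another gene in GENCODE M21. Cenpp itself counted 20, 19 and 25 reads in Con against 13, 10 and 13 in EX (log2 fold change -0.88, edgeR adjusted p = 0.0293), opposite in direction to Ogn.

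Genes that work with the SLRPs were then taken from lists and read beside the background of 9.11% higher and 8.80% lower. Genes under the filter were tested in a fit without it, where 6.08% of 16722 genes were called higher and 5.96% lower. Across the 8 lists of partner genes, the counts of calls describe each list and were not tested against other genes.

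The list of fibril collagens, which SLRPs coat, had the most calls of these 8 lists. It also holds Col6a1, Col6a2, Col6a3, Col12a1 and Col14a1, which are not fibril-forming collagens. Of 14 genes, 11 were called higher (Col1a1, Col1a2, Col3a1, Col5a1, Col5a2, Col5a3, Col6a1, Col6a2, Col6a3, Col11a2 and Col12a1) and 1 lower (Col2a1, the collagen of cartilage), and the median of the 11 genes past the filter was 0.37. Col1a1, the main chain of tendon and sheath collagen, had 86.8 ± 2.67 CPM in Con and 158 ± 0.814 CPM in EX muscle, a log2 fold change of 0.86 (SE 0.04, edgeR adjusted p = 4.86e-15). Col3a1 had 241 ± 8.54 and 407 ± 9.43 CPM (0.76, SE 0.04, adjusted p = 8.33e-15). Col2a1 fell from 31, 24 and 26 counts to 6, 5 and 4 (log2 fold change -2.46, adjusted p = 5.41e-07). Limma on TPM called 6 collagens higher.

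Of 13 genes of collagen processing and crosslinking, 2 were called higher and none lower, with a median of 0.08 past the filter. Lox, the enzyme that starts collagen cross-links, had 8.58 ± 1.47 and 13.5 ± 1.24 CPM (log2 fold change 0.65, edgeR adjusted p = 8.96e-05). Pcolce, which speeds the trimming of procollagen, had 31.4 ± 1.43 and 37.9 ± 1.93 CPM (0.27, adjusted p = 0.00163).

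The enzymes that build the side chains came next. Of 22 genes for chondroitin and dermatan sulfate chains, none was called higher and 2 lower, with a median of -0.03 past the filter. Among the 16 genes past the filter 1 was called lower, beside 8.80% of all genes tested. The other was under the filter, where the fit without it called 5.96% of genes lower. Fam20b, which phosphorylates the linkage xylose, had 94.3 ± 2.36 and 84.0 ± 2.74 CPM (log2 fold change -0.17, edgeR adjusted p = 0.00853); it was not called without Con replicate 2 or without EX replicate 1. Chst3, a chondroitin sulfotransferase under the filter, counted 34, 40 and 43 reads in Con against 25, 26 and 26 in EX (-0.65, adjusted p = 0.0263) and was called in only 5 of 14 alternatives. Of 6 keratan sulfate enzymes with a row, 1 was called lower: B4galt4, a galactosyltransferase of the chain, had 8.63 ± 0.586 and 6.47 ± 0.230 CPM (-0.41, adjusted p = 0.0109) and was not called by DESeq2.

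Of 8 growth factors that SLRPs bind, 2 were called higher and 1 lower (2 lower without Con replicate 1). Mstn, the gene of myostatin, a brake on muscle growth that decorin binds, had 132 ± 6.06 CPM in Con and 187 ± 5.11 CPM in EX muscle (log2 fold change 0.51, edgeR adjusted p = 6.16e-10). Ccn2, a matricellular growth factor, had 14.4 ± 1.61 and 19.5 ± 1.09 CPM (0.43, adjusted p = 0.000548). Bmp4 had 6.37 ± 0.515 and 4.59 ± 0.453 CPM (-0.47, adjusted p = 0.0138) and was not called by DESeq2 or without Con replicate 3 or EX replicate 3.

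Of 13 receptors and membrane partners, 1 was called higher (2 without Con replicate 1) and 2 lower. Musk, the receptor kinase of the nerve-muscle junction to which biglycan binds, had 40.2 ± 2.74 and 53.9 ± 3.74 CPM (log2 fold change 0.42, edgeR adjusted p = 5.53e-06). Igf1r, a growth factor receptor that decorin binds, had 30.8 ± 2.28 and 24.0 ± 1.71 CPM (-0.36, adjusted p = 0.00039). Kdr, the VEGF receptor of endothelium, had 142 ± 4.12 and 129 ± 2.21 CPM (-0.14, adjusted p = 0.0176), and 4 of the 6 fits with a library left out did not call it (those without Con replicate 2 or 3 and without EX replicate 2 or 3).

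Of 9 proteases that cut SLRPs, 3 were called higher (Htra1, Mmp2 and Mmp14) and none lower. Htra1, a serine protease that cleaves decorin, biglycan and fibromodulin, had 51.7 ± 2.67 and 79.0 ± 1.92 CPM (log2 fold change 0.61, edgeR adjusted p = 3.19e-10). Mmp2, a gelatinase, had 43.2 ± 2.59 and 56.7 ± 3.54 CPM (0.39, adjusted p = 8.27e-06). Of 10 other extracellular proteoglycans, none was called higher and 3 lower (Hspg2, Agrn and Esm1). Agrn, the heparan sulfate proteoglycan that signals through MuSK, had 44.6 ± 1.93 and 37.0 ± 0.831 CPM (-0.27, adjusted p = 0.000732). Esm1, an endothelial proteoglycan under the filter, counted 29, 35 and 33 reads in Con against 17, 14 and 14 in EX (-1.15, adjusted p = 0.000644).

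**Figure D4:**
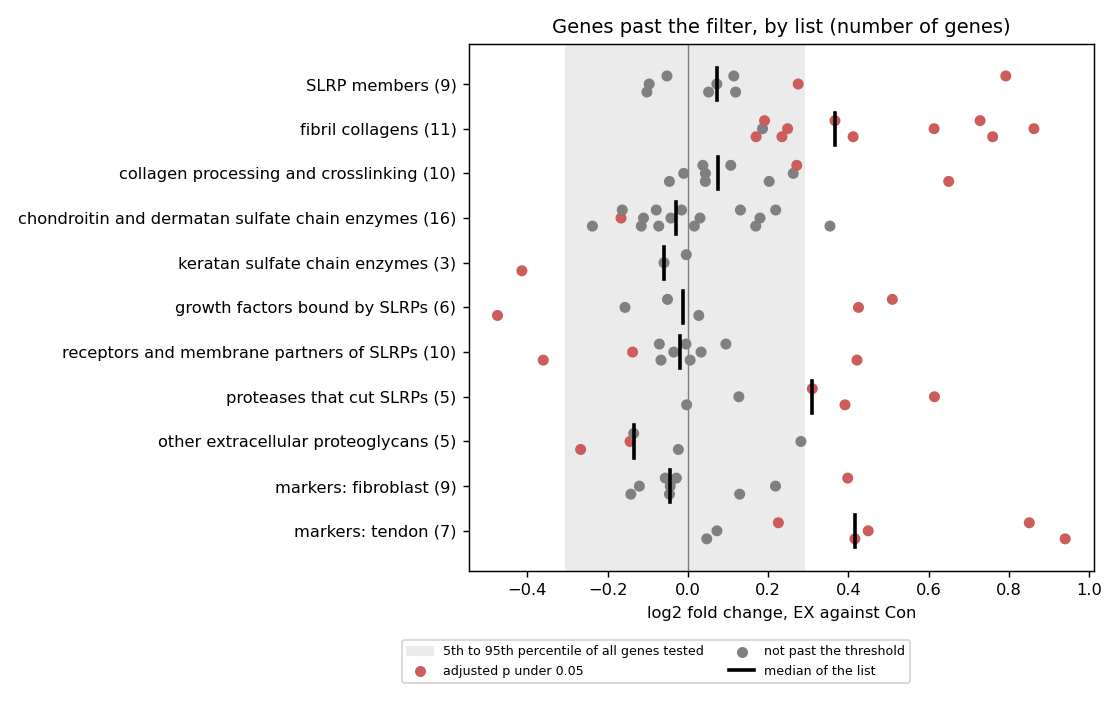
Log2 fold change of every gene past the filter in the members and in 10 lists, with the number of genes in brackets, calls in red and the list's median as a bar; the grey band holds the 5th to the 95th percentile of all genes tested. The medians are 0.37 for the list labelled fibril collagens, 0.42 for tendon markers, -0.04 for fibroblast markers and 0.07 for the members. Of the members, only Fmod lies past the right edge of the band.

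Since 11 of the 14 listed collagens were called higher and 7 of the 9 members were not called, members and collagen were compared within each library as ratios of FPKM. These 5 ratios were chosen after the values were seen, so they restate the levels above within libraries and are given with no test. Dcn over Col1a1 was 14.3, 14.5 and 13.1 in Con replicates 1 to 3 and 7.44, 7.08 and 7.01 in EX replicates 1 to 3. The groups were far apart, with means of 14.0 ± 0.753 and 7.18 ± 0.232 (SD, n = 3), and the ratio combines a Col1a1 level of 15.7 and 27.5 FPKM with a Dcn level of 219 and 197 FPKM in Con and EX muscle. Fmod over Col1a1 was 1.33, 1.17 and 1.15 in Con and 1.06, 1.23 and 1.19 in EX. Here the groups overlapped (means 1.22 ± 0.0989 and 1.16 ± 0.0848, n = 3). The summed FPKM of all 9 members over that of Col1a1, Col1a2 and Col3a1 was 3.69, 3.41 and 3.12 in Con and 2.16, 2.07 and 2.05 in EX, without overlap.

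Between members, Fmod over Lum was 1.14, 0.855 and 0.891 in Con and 1.38, 1.71 and 1.71 in EX, so Fmod was at or near the level of Lum in Con muscle and above it in every EX library. Bgn over Dcn had means of 0.127 ± 0.00410 and 0.147 ± 0.0142, and its groups were parted by less than 0.001 (0.1313 in Con replicate 1 and 0.1317 in EX replicate 1). Ogn over Aspn had means of 1.33 ± 0.0513 and 1.68 ± 0.214. Each of these 3 ratios was higher in 3 of 3 EX libraries than in any Con library.

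**Figure D5:**
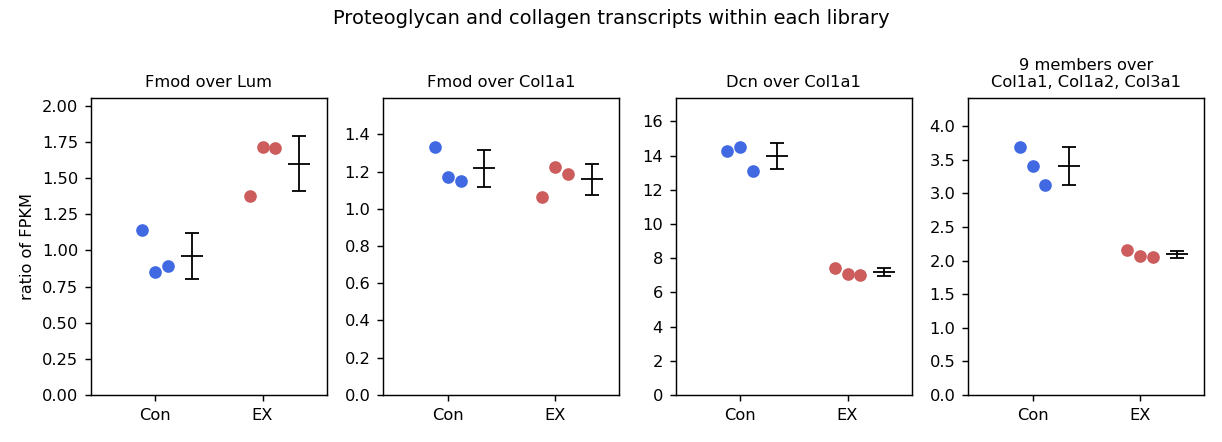
Ratios of FPKM within each library, 1 point per library in replicate order, on axes that start at 0, with the mean and SD of each group to the right of its points. Fmod over Lum is 0.855 to 1.14 in Con and 1.38 to 1.71 in EX, Fmod over Col1a1 overlaps, and Dcn over Col1a1 (13.1 to 14.5 against 7.01 to 7.44) and the 9 members over 3 collagens (3.12 to 3.69 against 2.05 to 2.16) are lower in EX.

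Markers of the cell types that a piece of hind leg muscle can hold were read beside these results. The background for all marker lists was the same, 9.11% of all genes tested called higher and 8.80% lower. For markers under the filter it was 6.08% and 5.96%, from the fit without it. Of 10 fibroblast markers, 1 was called higher (Clec3b) and none lower. Without Con replicate 1, 3 were called higher, without EX replicate 2, 1 was called lower, and limma on TPM called 2 lower. Their sum was 433 to 444 CPM in Con and 431 to 443 CPM in EX. The members of this list did not move together. Smoc2 and Cd34, the most abundant, had log2 fold changes of -0.05 and -0.06, and Clec3b had 0.40 (edgeR adjusted p = 0.000289). Among those not called, Pi16 had 0.22, Dpt 0.13, Col15a1 -0.12 and Pdgfra -0.14. The part of fibroblasts in the values of Fmod and Ogn was not tested. Of 8 tendon markers, 5 were called higher (Tnmd, Thbs4, Fibin, Cilp2 and Col22a1) and none lower, and none was at 0 in any library. Col22a1 was close to the threshold (edgeR adjusted p = 0.0451), and the count of higher calls was 4 with DESeq2, with each limma fit, without the filter, with the replicate block and in 4 of the 6 fits with a library left out. The summed level of the list was 149 to 152 CPM in Con and 200 to 201 CPM in EX. Thbs4, the most abundant, had 108 ± 2.89 and 144 ± 2.11 CPM (log2 fold change 0.42, edgeR adjusted p = 1.81e-08), and Scx and Comp had 0.05 and 0.07 and were not called. The called tendon markers were thus higher in EX muscle, as were Fmod, Ogn and 11 of the 14 listed collagens. The part of tendon in these results was not tested.

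Markers of cartilage and bone, where Chad, Epyc and Omd are also known, were low. Of 8 cartilage markers with a row, 1 was called higher (Col9a1) and 3 lower (Col2a1, Col10a1 and Clec3a), their sum was 7.04 to 9.27 CPM in Con and 4.81 to 5.72 CPM in EX, and Acan, Matn3, Hapln1, Col10a1 and Clec3a were at 0 in at least 1 library. Col9a1 was not called by DESeq2, by any of the 3 limma fits or in 5 of the 6 fits with a library left out (all but that without EX replicate 3), and the count of lower calls was 2 with DESeq2 and in 5 of those 6 fits. Of 6 bone markers with a row, 2 were called lower (Ibsp and Spp1), their sum was 8.97 to 10.3 CPM in Con and 3.27 to 4.25 CPM in EX, and Ibsp and Sp7 were at 0 in some library. The part of these cell types in the values of Omd and Epyc was not tested.

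Markers of other cell types were also among the calls. Fat cell markers were called higher for 6 of 6 genes, with a sum of 14.0 to 15.3 CPM in Con and 34.7 to 39.1 CPM in EX, and Lep was at 0 in at least 1 library. Macrophage markers were called higher for 5 of 8, with sums of 41.3 to 45.1 and 72.0 to 77.3 CPM. Endothelial markers were called higher for 1 and lower for 3 of 8 (693 to 704 and 610 to 635 CPM), markers of smooth muscle and pericytes higher for 1 and lower for 5 of 7 (927 to 961 and 751 to 778 CPM), and Schwann cell markers lower for 5 of 6 (111 to 122 and 84.6 to 87.7 CPM). Muscle fibre markers were called higher for 1 (Acta1) and lower for 2 (Myh1 and Mb) of 6. Without Con replicate 1, 3 muscle fibre markers were called higher and 2 markers of smooth muscle and pericytes. Without Con replicate 2, Con replicate 3, EX replicate 1 or EX replicate 3, 1 muscle fibre marker was called lower. The 1 higher call among smooth muscle and pericyte markers was lost in each of the other 5 fits with a library left out and with DESeq2, and that among endothelial markers without Con replicate 2 and with DESeq2. Without EX replicate 3, 1 endothelial marker was called lower. The part of these cell types in the results for the members was not tested.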

How the data were processed

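Total RNA of hind leg muscle was sequenced by the authors as 150 bp paired-end reads on the DNBseq platform, and low-quality reads were removed. The authors deposited an estimated count, an FPKM and a TPM value per gene and library in 1 table; FPKM and TPM are their normalization of the estimated counts by gene length and depth. The study's methods name HISAT and GRCm39, while the submitters' processing notes name GRCm38.p6, cutadapt, featureCounts and MultiQC; which build holds for the counts could not be settled. Between 4.18% and 4.44% of the counts in a library were not whole (within 0.005), those of the 9 members were, and all were rounded. Use of strand and a batch are not given in the sources used here. The 6 group-mean columns were not used.

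Counts were scaled by TMM and tested with edgeR 4.0.16 (glmQLFit, glmQLFTest; R 4.3.3) in the 10883 of 16759 genes with a mean FPKM of 1 or more, or without that filter (16722) for genes under it. CPM were computed with the TMM scaling, and genes were called at an adjusted p under 0.05. Alternatives used DESeq2 1.42.0, limma 3.58.1 on log2 of FPKM or TPM plus 0.1 (or FPKM plus 1), other scalings and filters, a replicate block, and each library left out. Fits were first tested on simulated data. Same-numbered Con and EX libraries did not deviate together (r = -0.0787, -0.0496 and -0.0116), so they were not paired. The text names all 9 members, the other SLRP genes, up to 2 increases and 2 decreases per list among called genes without overlap, and, of markers, those at 0 and the 2 most abundant; Tnmd, Fibin, Cilp2, Scx, Comp, Mmp14, Hspg2, Clec3b, Pi16, Dpt, Col15a1, Pdgfra, Cenpp, the remaining called collagens and called markers were named after their values were seen. Members and lists were chosen with earlier results of these data known. Intervals and the floor of 3 counts cover counting error or the spread between these 6 libraries only. Promoters and gene order came from RefSeq (GRCm38.p6) and exon overlap from GENCODE M21. Protein sequences were not used here.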

Additional observations from a re-analysis of the deposited data

How the results depend on the processing

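Fmod kept its call under all 15 alternatives and Ogn under 14, and no called member changed direction under any of them. The number of members called higher was 2 in the reported fit, 1 with limma on TPM, and 2 to 4 when a library was left out; it was 4 without Con replicate 1, when Bgn and Prelp were added. The number called lower was 0, and 1 (Dcn) with totals without the 20 most abundant genes, with limma on TPM and without Con replicate 3 (0 to 1 over the fits with a library left out). Limma on TPM also called 1 of the other SLRP genes lower in place of 0 (Epyc, adjusted p = 0.0334). Over the 8 lists of partner genes, the 19 genes called higher became 13 to 19, and the 10 called lower became 4 with a filter of at least 5 FPKM, by fewer genes tested. Over all genes, the 991 called higher became 643 with DESeq2, 411 with limma on FPKM with either pseudocount and 340 with limma on TPM, and the 958 called lower became 585 with DESeq2 and 1684 with limma on TPM. The TPM scale moved the median of all genes by -0.09 on the log2 scale, FPKM with a pseudocount of 0.1 by -0.05 and the totals without the 20 most abundant genes by -0.02, and the cause was not tested. Lum and Podn changed sign in the 3 limma fits and Kera in that on TPM. Limma fold changes were taken after adding the pseudocount and so are too small for low genes.

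With the replicate number as a block, 2 members were called higher and 0 lower, the other SLRP genes gave 0 calls, the partner lists 19 and 10, and all genes 909 and 873; Fmod was 0.79 and Ogn 0.27, and the block changed no call of a member. The same numbers do not mark pairs here.

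Kera, with 86 to 101 counts per library, and Chad, with 94 to 149, had SEs of 0.12 and 0.15, beside 0.04 for Dcn with 4798 to 5303. Both depth and the spread between libraries enter these SEs, and Chad varied most within Con. Groups of 3 were not screened for outlying samples.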
